A study of Mus musculus with 28 samples.

Results

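Whole testes of NANOS2 KO mice, given in the labels as germ cell-deficient, were compared with Sertoli cells sorted from testes in which spermatogenesis runs. All 18 RNA-seq libraries of the KO testes and all 10 libraries of sorted cells were used, so the comparison takes in 28 of the 28 libraries of the series. The 2 count tables were joined by gene symbol and scaled together. The KO mice were on a CD1 background, and 2 libraries were made on each of 9 days, from 42 to 50 days after an injection of retinoic acid (dpi). The sorted cells came from RFP heterozygote, Amh-Cre-positive mice, in which the Amh promoter drives Cre in Sertoli cells and RFP marks the cells to be sorted. Their strain is given as derived from C57BL/6 x 129s4/SvJae, except for 1 library of group A, given as C57BL/6 x Amh-Cre background. They fall into 5 groups of 2 libraries by the stages of the seminiferous cycle they are enriched for. Group B stands for stages I-III, group C for IV-VI, group D for VII-VIII, group E for IX-X and group A for XI-XII. All mice, of both genotypes, had been given WIN 18,446, a blocker of retinoic acid synthesis, for 7 days and retinoic acid on the day after, a treatment used to synchronise spermatogenesis, and the sorted cells were also taken at 42 to 50 dpi. Genotype, strain and whole organ against sorted cells change together between the sets and cannot be told apart. Nothing in the labels ties the 2 libraries of a group to different animals, and p-values here rest on the spread among libraries, which may be technical.

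Sertoli cells line the seminiferous tubule and carry every germ cell stage. They seal the tubule with tight junctions, feed germ cells with lactate, clear their residual bodies and supply growth factors to the stem cells. NANOS2 is an RNA-binding protein of male germ cells that is needed to keep spermatogonial stem cells, and testes without it lose their germ line. Leydig cells, which make testosterone, peritubular myoid cells, macrophages and vessels lie outside the tubule, so a whole testis contains them and a clean Sertoli sort does not.

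Promoter windows of 3 of the 4 genes chosen to mark the cells are printed because these genes stand for the 2 sides of the comparison, germ cells and interstitium. They were Prm2, a protamine that packs sperm DNA, Ldhc, the lactate dehydrogenase of germ cells, and Cyp11a1, the enzyme that turns cholesterol into pregnenolone. The fourth marker is Dcn, which encodes the matrix proteoglycan decorin. Each window is the first that RefSeq lists for the gene on GRCm38.p6 and runs from 250 bases before to 50 bases after the start, on the gene's strand. Capitals mark AGGTCA, the core site of nuclear receptors, and TGACG, the core of the cAMP response element, on either strand. No 2 of the marked matches overlap.
Prm2, chr16:10792056-10792355, minus strand: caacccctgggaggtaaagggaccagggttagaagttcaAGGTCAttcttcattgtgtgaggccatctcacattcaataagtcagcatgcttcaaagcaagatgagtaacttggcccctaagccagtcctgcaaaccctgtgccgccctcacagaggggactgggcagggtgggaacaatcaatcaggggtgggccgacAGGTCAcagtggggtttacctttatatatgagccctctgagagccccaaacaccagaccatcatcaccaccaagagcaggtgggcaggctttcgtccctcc
Ldhc, chr7:46861013-46861312, plus strand: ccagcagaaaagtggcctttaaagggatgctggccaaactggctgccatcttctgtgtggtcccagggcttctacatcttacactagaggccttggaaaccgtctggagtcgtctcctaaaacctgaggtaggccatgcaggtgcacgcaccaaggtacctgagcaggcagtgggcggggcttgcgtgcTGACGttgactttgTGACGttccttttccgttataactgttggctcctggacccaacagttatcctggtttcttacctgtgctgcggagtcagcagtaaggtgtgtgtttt
Cyp11a1, chr9:57997774-57998073, plus strand: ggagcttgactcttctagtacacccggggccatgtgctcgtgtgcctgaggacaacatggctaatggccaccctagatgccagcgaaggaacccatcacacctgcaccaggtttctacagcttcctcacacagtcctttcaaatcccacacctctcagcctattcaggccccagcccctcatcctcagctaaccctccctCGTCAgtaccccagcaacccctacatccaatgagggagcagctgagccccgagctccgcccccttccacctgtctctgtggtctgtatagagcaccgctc
The Prm2 window held AGGTCA at -211 and at -51 from the start, the first of them within CAAGGTCA, a form of the sequence bound by the Sertoli and Leydig cell factor NR5A1. TGACG stood at -61 and at -47 in the Ldhc window, and at -50 on the opposite strand in the Cyp11a1 window. Over the first listed window of all 27025 genes in the table, 21.0% held TGACG, 16.0% held AGGTCA and 1.53% held CAAGGTCA on either strand. A match is a run of letters and not a binding site.

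Depth was 1336700 to 4370100 counts in the KO libraries and 1901700 to 5279700 in the sorted libraries, to 5 digits. A gene with 0 counts in 1 library could therefore lie at up to 3 counts by counting error alone. By library total, this is 2.24 CPM (counts scaled to a common library total) in the shallowest KO library and 1.58 CPM in the shallowest sorted library. The CPM printed below also carry the joint scaling of the libraries, which divides these bounds by 1.12 and 0.838. One KO library stood apart. Day 49 replicate 1 had 0.687% of its counts in the 13 mitochondrially encoded genes, against 2.26 to 3.18% in the other 17 KO libraries, the lowest share of the Leydig list (0.363%) and the highest of the stroma list (0.303%). Leaving it out left 1 library for that day and loosened the filter on low counts, with 16576 genes tested in place of 15777. Fold changes without it are therefore given below for single genes, and not counts of calls. Among the sorted cells, the libraries of group C differed from each other in stage-bound genes, for example Stra6 with 9.81 and 177 CPM. Other groups differed within themselves as well. Against sampling noise the 2 libraries lay furthest apart in group A (chi-square per degree of freedom 33.8), then in D (22.8) and C (17.8), a measure that also grows with depth. Nanos2 itself had 0 counts in each of the 18 KO libraries, and 1 count in each of 2 of the 10 sorted libraries, so it does not check the genotype. The germ cell genes below bear on the label in its place.

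The sets were far apart. The root mean square difference between a KO and a sorted library over the tested genes was 1.94 to 2.37 on the log2(CPM + 1) scale (180 pairs), against 0.333 to 0.689 between any 2 KO libraries and 0.410 to 1.04 between any 2 sorted libraries. Of 15777 genes tested in one fit over all libraries (edgeR's quasi-likelihood test, Benjamini-Hochberg adjusted p under 0.05), 6004 were higher (38.1% of those tested) and 7419 lower (47.0%) in the KO testes. A difference of at least 2-fold was called for 3749 higher genes (23.8%) and 4596 lower genes (29.1%). The values of the 2 sets did not overlap at all for 2707 higher genes (17.2%) and 3878 lower genes (24.6%). The median of all tested genes was -0.171 log2, and scaling by library totals alone moved it to 0.206 and the counts to 7556 higher and 5849 lower, so small differences are read with that shift in mind. With 85.1% of all genes called, a call alone says little about a gene list. For that reason sizes and medians are given for the lists, some of which share genes.

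Germ cell genes were close to absent from the KO testes and plain in the sorted cells. Over 5 lists of germ cell genes, from spermatogonia to the sperm axoneme, 76 of 79 tested genes were lower in the KO testes and 2 were higher, with a median of -8.48 log2 against -0.171 for all genes. The 79 are those of 83 listed genes that passed the filter on low counts, and since a gene that passes through one set alone is bound to differ, such counts describe a list and do not test it. The listed genes together took 0.0517 to 0.0636% of the counts of a KO library (median 0.0588%), against 1.08 to 3.05% of those of a sorted library (median 2.13%). The labels call the sorted cells Sertoli cells, whereas the extraction text mentions germ cells as what was sorted, so what the sorted libraries were meant to hold is given in 2 ways. In bulk RNA, fewer cells of a type and less RNA per cell cannot be told apart.

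The protamine gene Prm2 and the transition protein genes Tnp1 and Tnp2, whose products replace histones in the spermatid nucleus, were among the 12 largest falls. Prm2 had 0, 0 and 0.384 CPM (lowest, median and highest library) in KO testes, against 616, 3048 and 5435 CPM in sorted Sertoli cells. Its 2 counts over all KO libraries, against 99226 over the sorted ones, make it 79890-fold lower (95% counting interval 22110 to 659700; edgeR adjusted p = 2.0e-15). Every sorted library lay above every KO library, and group D, with 616 and 1074 CPM, held the least. Tnp1 had 0, 0 and 1.33 CPM in KO testes, against 212, 1997 and 3140.4 CPM in sorted cells. Prm1 had 0, 0 and 0.845 CPM in KO testes and 153, 1766 and 3083 CPM in sorted cells. The 3 genes had 2, 3 and 7 counts in sum over all KO libraries.

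Genes of the sperm tail and of meiosis followed. Akap4, which anchors kinases in the fibrous sheath of the tail, had 0 counts in all KO libraries and 188, 1069 and 1541 CPM in sorted cells, at least 17030-fold lower in KO testes when set against 3 counts over the 18 libraries. Spata20, Smcp, a protein of sperm mitochondria, and Spz1, a testis transcription factor, likewise had 0 counts in every KO library, with medians of 921, 852 and 608 CPM in the sorted ones. In all, 205 genes had 0 counts in every KO library and at least 10 in every sorted library (387 with at least 3). Ldhc had 0, 0 and 0.666 CPM in KO testes, against 922, 1206 and 2342 CPM in sorted cells. Of the spermatogonia list 11 of 14 tested genes were lower (median -5.06 log2). All 18 tested members of the spermatocyte list, all 15 of the round spermatid list, all 17 of the elongating spermatid list and all 15 of the axoneme list were lower in KO testes. The medians of these 4 lists were -7.05, -8.28, -12.6 and -8.40 log2, and -7.05, -7.99, -12.6 and -8.40 with genes at 0 set to the bound of 3 counts. The tubulin genes Tuba3a and Tuba3b were also among the 12 largest falls, but they are near-identical copies whose reads can be split between them.

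Some genes of the germ lists kept a level in KO testes. Odf2, an outer dense fibre protein that is also a part of the centrosome in other cells, had 138, 169.7 and 205 CPM in KO testes, against 778, 2759.6 and 4058 CPM in sorted cells, a log2 fold change of -3.80 ± 0.08 (SE). Hspa2, the heat shock protein of spermatocytes, had 32.2, 54.7 and 68.0 CPM in KO testes and 305, 599.6 and 955 CPM in sorted cells. Tdrd1, a piRNA pathway protein, had 29.2, 39.8 and 51.2 CPM in KO testes and 103, 147 and 206 CPM in sorted cells. None of the 3 overlapped between the sets, and all were lower in KO testes. The 2 higher genes were Kit and Zbtb16, and Zbtb16 was not called against stages I-III or IV-VI alone. Kit, a receptor of differentiating spermatogonia that Leydig cells also carry, had 57.6, 90.5 and 164 CPM in KO testes, against 7.46, 16.9 and 29.4 CPM in sorted cells (2.63 ± 0.14 log2, adjusted p = 1.8e-15). Ddx4, a helicase found in germ cells alone, had 0, 0.107 and 1.00 CPM in KO testes and 51.1, 70.0 and 154 CPM in sorted cells.

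**Figure D1:**
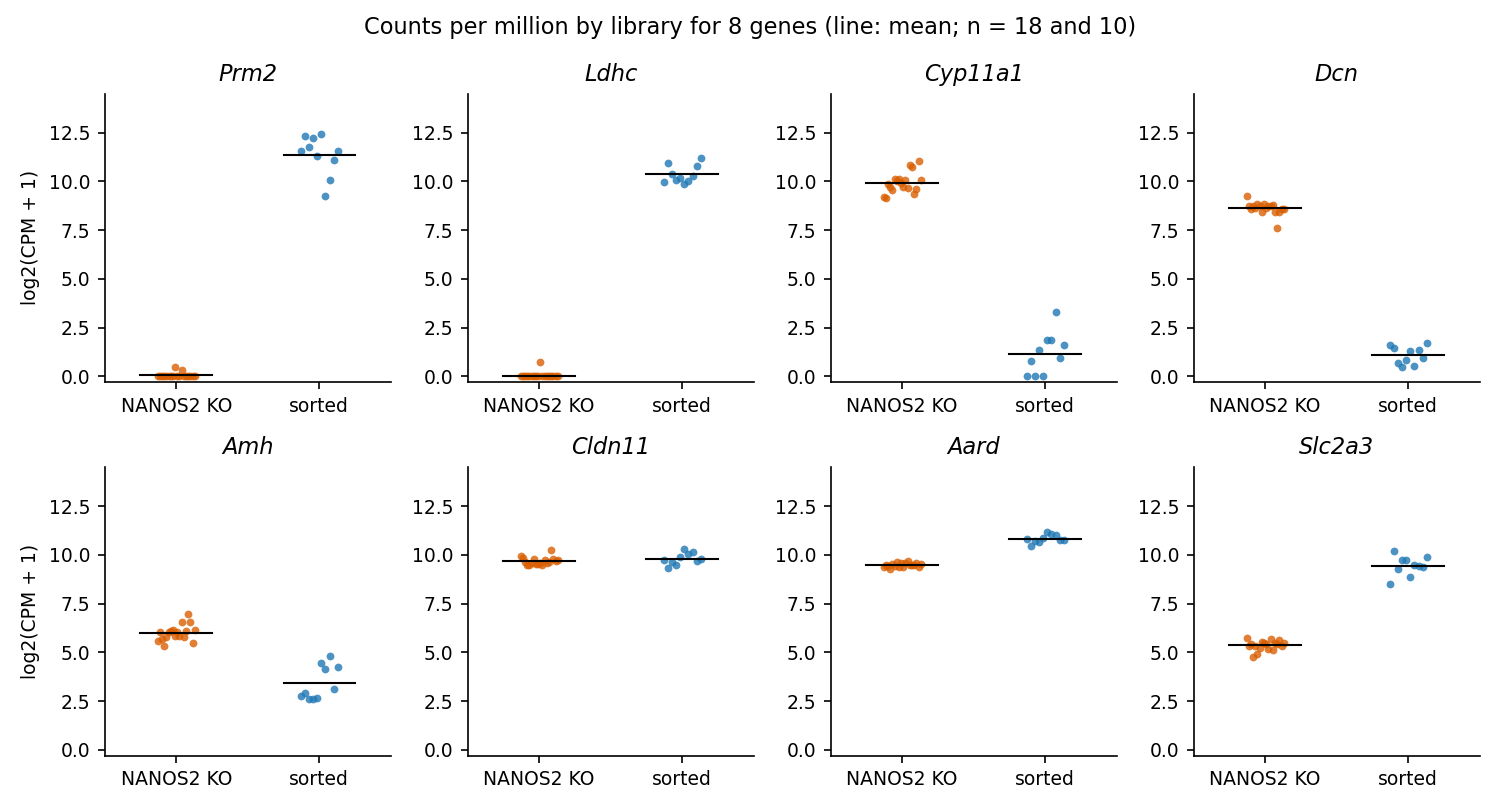
Level of 8 genes in each library, as log2(CPM + 1), with NANOS2 KO testes (n = 18) on the left and sorted Sertoli cells (n = 10) on the right of each panel; lines are means. Prm2 and Ldhc sit at or near 0 in KO testes, Cyp11a1 and Dcn are far lower in sorted cells and do not overlap, Cldn11 overlaps between the sets, Amh lies above and Aard and Slc2a3 lie below the sorted range.

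Genes of the cells between the tubules went the opposite way. Over the lists for Leydig cells, peritubular myoid cells, stroma, macrophages, endothelium and pericytes, 64 of 71 tested genes (76 listed) were higher in KO testes and 4 lower, with a median of 3.77 log2. The listed genes together took 0.953 to 1.37% of the counts in KO libraries, against 0.182 to 0.244% in sorted libraries. The cell type label of the KO libraries reads Sertoli, while their source is whole testis.

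Genes of steroid synthesis were among the 12 largest rises. Cyp11a1 had 570.5, 958 and 2087 CPM in KO testes, against 0, 1.24 and 8.78 CPM in sorted cells (9.48 ± 0.25 log2, SE, adjusted p = 1.6e-19). Cyp17a1, a later enzyme on the way to androgens, had 355, 826 and 1921 CPM in KO testes and 0, 1.55 and 4.24 CPM in sorted cells. The sets did not overlap for either, and both varied widely among the KO testes. Hsd3b6, the 3-beta-hydroxysteroid dehydrogenase of adult mouse Leydig cells, had 496, 925 and 1143 CPM in KO testes, against 0, 0 and 0.924 CPM in sorted cells, though reads may be shared with its close relative Hsd3b1. Lhcgr, the receptor for luteinising hormone, had 83.4, 158 and 230.3 CPM in KO testes and 0 counts in all sorted libraries, at least 1674-fold higher in KO testes when set against 3 counts over the 10 libraries. Insl3, the peptide hormone of Leydig cells, was also at 0 in the sorted libraries and had 6.34, 12.8 and 35.4 CPM in KO testes. Star, which carries cholesterol into mitochondria, was present in both sets, with 305, 485 and 728 CPM in KO testes and 14.4, 24.6 and 34.5 CPM in sorted cells. In the Leydig list 12 of 13 tested genes were higher, with a median of 7.32 log2, and Scarb1 was not called.

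Metabolic enzymes stood beside the steroid genes among the 12 largest rises. Ces1d, a carboxylesterase, had 166, 219.9 and 278 CPM in KO testes and 0 counts in all sorted libraries, at least 2368-fold higher. Bhmt, which remethylates homocysteine, had 571, 773 and 1013 CPM in KO testes, against 0, 0.657 and 2.51 CPM in sorted cells. Apoc1, an apolipoprotein, had 62.3, 117 and 212 CPM in KO testes and 0, 0 and 0.747 CPM in sorted cells. In turn, 9 genes had 0 counts in every sorted library and at least 10 in every KO library (25 with at least 3). This asks for counts in all 18 KO libraries, the shallower set. The rule for genes at 0 in KO testes asked for them in only the 10 sorted libraries, so the 2 numbers cannot be compared. The 9 were Ces1d, Lhcgr, Acss3, Ugt3a2, Insl3, Vsig4, Pirb, Bhmt-ps1 and A530020G20Rik, of which those not in the naming rule were added after their values were seen.

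Stroma, myoid cells and macrophages showed the same direction in most members. Dcn had 197, 409 and 597 CPM in KO testes, against 0.387, 1.20 and 2.24 CPM in sorted cells (8.42 ± 0.17 log2, adjusted p = 1.3e-23). Pdgfra, a receptor of interstitial fibroblasts and Leydig precursors, had 215, 252 and 343 CPM in KO testes and 4.88, 14.8 and 21.7 CPM in sorted cells. Without KO day 49 replicate 1 the fold change of Dcn was 8.46 log2 and that of Cyp11a1 9.49. In the stroma list 11 of 12 genes were higher (median 4.94 log2). Acta2, the smooth muscle actin of myoid cells, had 215, 295 and 350.1 CPM in KO testes and 28, 37.4 and 48.8 CPM in sorted cells, and 11 of 13 genes of the myoid list were higher (median 2.61). The macrophage list had 15 of 17 genes higher (median 5.65), among them Lyz2 and Csf1r, with no overlap between the sets for either. Lyz2, lysozyme, had 155, 205 and 311 CPM in KO testes and 0, 0.230 and 1.26 CPM in sorted cells. Csf1r, the receptor for macrophage growth factor, had 106, 133 and 177 CPM in KO testes and 0, 1.59 and 2.71 CPM in sorted cells.

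Genes of vessels went the same way. The endothelial list had 10 of 11 tested genes higher (median 2.89 log2), and all 5 genes of the pericyte list were higher (median 3.24). Eng, endoglin, had 26.7, 40.7 and 59.2 CPM in KO testes, against 0, 1.72 and 3.66 CPM in sorted cells. Of the lymphoid and mast cell list only Ighm passed the filter on low counts, with 9.51, 16.8 and 25.8 CPM in KO testes and 0, 0 and 0.431 CPM in sorted cells, and no gene of the rete testis list did.

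The 4 lower genes of these lists were Fbln1, Aif1, Actg2 and Myl9. Fbln1, fibulin 1 of the matrix, had 3.17, 7.18 and 9.89 CPM in KO testes, against 54.8, 109 and 164 CPM in sorted cells (-4.02 ± 0.12 log2). Aif1, a macrophage actin-binding protein, had 4.51, 8.57 and 11.3 CPM in KO testes and 55.6, 203 and 314 CPM in sorted cells (-4.45 ± 0.14). Actg2, smooth muscle gamma actin, had 4.59, 7.13 and 12.3 CPM in KO testes and 47.8, 167 and 369 CPM in sorted cells (-4.50 ± 0.14). None of these 3 overlapped between the sets, and the sorted libraries of group D held the least Aif1 and Actg2, as they did for Prm2. Myl9, a myosin light chain, was lower by less (-0.83 ± 0.08). Red cell genes split as well. The globin gene Hbb-bs had 15.5, 25.2 and 34.7 CPM in KO testes and 0, 1.30 and 3.33 CPM in sorted cells. Alas2, the first enzyme of haem synthesis in red cell precursors, had 5.63, 15.9 and 53.3 CPM in KO testes and 37.2, 549.9 and 1139 CPM in sorted cells (-4.28 ± 0.22).

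**Figure D2:**
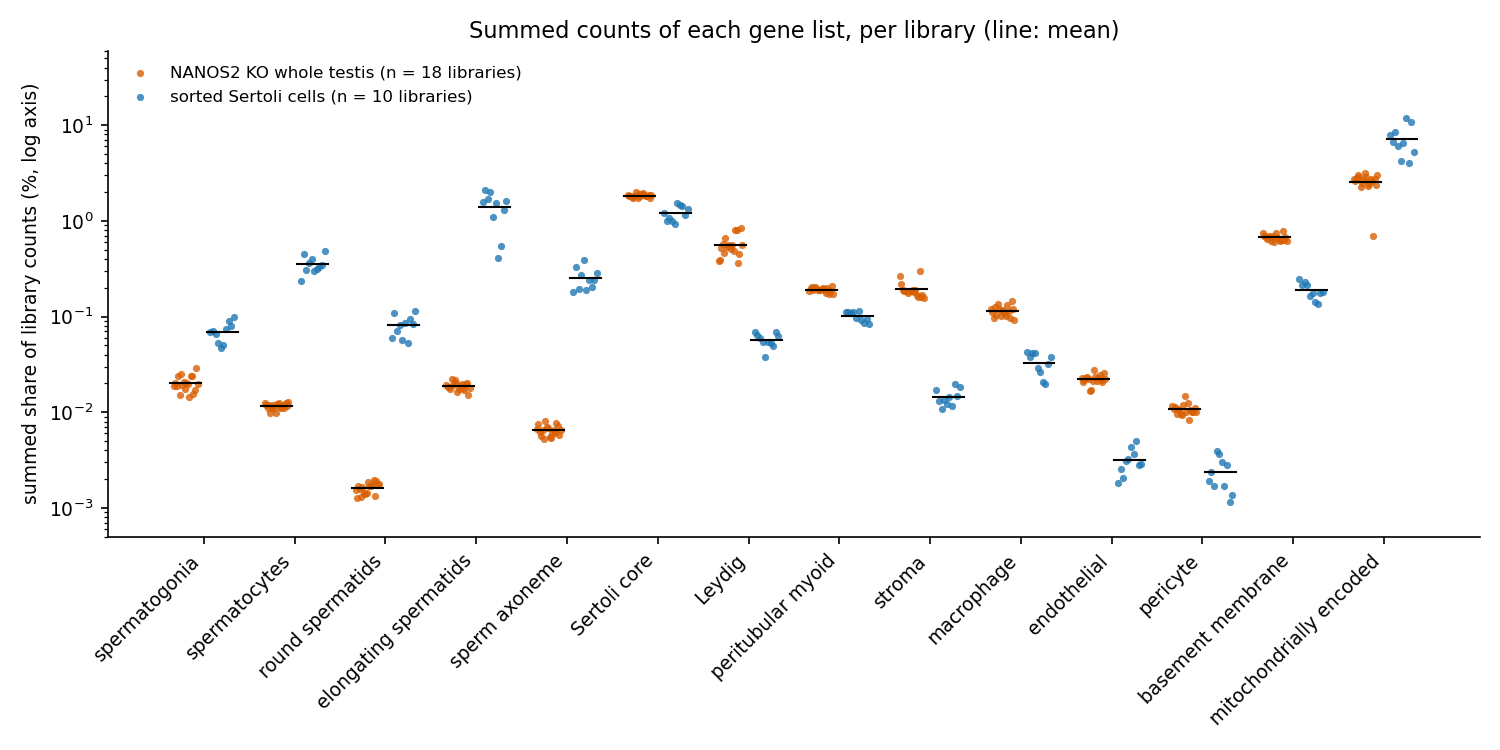
Percent of a library's counts taken by the genes of each list, on a log axis, 1 point per library, NANOS2 KO testes (n = 18) left and sorted Sertoli cells (n = 10) right in each pair; lines are means. The 5 germ cell lists and the mitochondrially encoded genes lie lower in KO testes, the Sertoli core list (which overlaps without Clu), the 6 interstitial lists and the basement membrane list lie higher, and no pair as drawn overlaps.

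**Figure D3:**
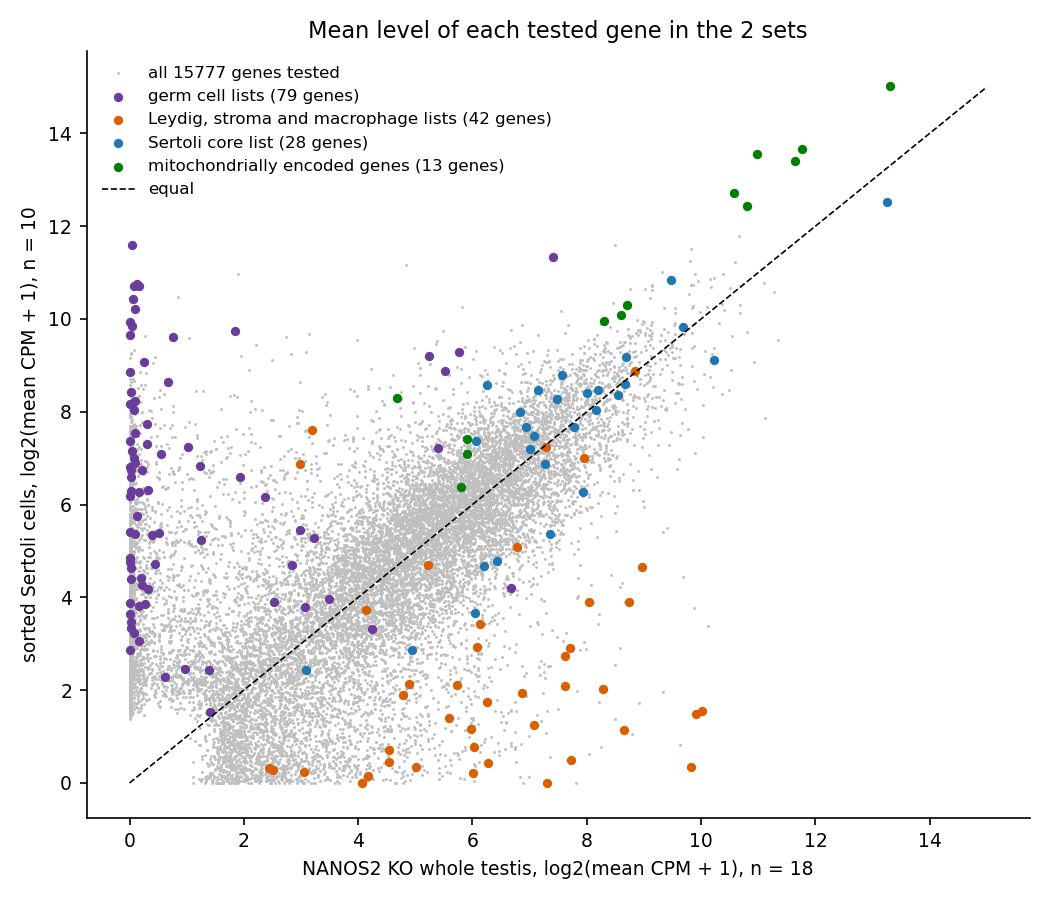
Mean level of each of the 15777 tested genes, as log2(mean CPM + 1), in NANOS2 KO testes (x axis, n = 18) and in sorted Sertoli cells (y axis, n = 10); the dashed line marks equal levels. Most germ cell genes line up along the y axis near 0 in KO testes, most Leydig, stroma and macrophage genes lie near the x axis, Sertoli core genes scatter on both sides of the line and mitochondrially encoded genes lie above it.

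The shares of counts taken by the genes furthest apart describe the size of the contrast. These genes were chosen on the same values, so a gap between the sets follows from the choice. The 1090 genes called at least 10-fold higher took 4.46 to 6.07% of the counts in KO libraries and 0.0944 to 0.161% in sorted libraries. The 2096 genes called at least 10-fold lower took 0.282 to 0.326% of the counts in KO libraries and 7.37 to 18.1% in sorted libraries.

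Sertoli cell genes were present in both sets and moved both ways. The 28 genes of the core list took 1.73 to 2.00% of the counts in KO testes, against 0.938 to 1.53% in sorted cells. Clu alone took 0.990 to 1.19% in KO testes and 0.287 to 0.651% in sorted cells, and without it the other 27 genes took 0.684 to 0.825% in KO testes and 0.539 to 0.877% in sorted cells, with overlap. All 28 were tested. Of these, 10 were higher and 13 lower in KO testes and 5 were not called. That split is near the one of all tested genes, of which 38.1% were higher and 47.0% lower. The median of the list was -0.0246 log2. The median turned positive with RLE scaling (0.0449) and with library totals alone (0.358, with 15 higher and 7 lower), and was -0.257 with the summed core list as the scale.

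Signals of the core list went both ways. Amh, Gdnf and Kitl were higher, while Inhbb, a subunit of inhibin and activin (-0.39 log2), and Dhh, a hedgehog ligand (-0.41), were lower, by about as much as the list median moves between TMM and library totals. Amh, the hormone of immature Sertoli cells that regresses the Müllerian duct, had 38.7, 64.1 and 125 CPM in KO testes, against 5.02, 7.10 and 26.9 CPM in sorted cells (2.62 ± 0.18 log2, adjusted p = 1.1e-12). Gdnf, the factor that keeps spermatogonial stem cells, had 20.1, 30.5 and 40.0 CPM in KO testes and 1.29, 6.31 and 12.9 CPM in sorted cells (2.40 ± 0.17). Kitl, the ligand of KIT, had 125, 164 and 221 CPM in KO testes and 25.4, 36.1 and 74.3 CPM in sorted cells (2.06 ± 0.12). The sets did not overlap for any of the 3, and each was called higher against every stage group taken alone. Against single stage groups Amh ranged from 1.53 (D) to 3.65 (B) log2 and Gdnf from 1.62 (B) to 3.92 (D).

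A receptor and several secreted proteins rose as well. Fshr, the receptor for follicle-stimulating hormone, had 43.4, 75.8 and 90.6 CPM in KO testes, against 13.5, 26.6 and 33.2 CPM in sorted cells (1.58 ± 0.14 log2). Shbg, the androgen-binding protein that Sertoli cells secrete, had 192, 239 and 338 CPM in KO testes and 24.1, 76.7 and 116 CPM in sorted cells (1.76 ± 0.12). Inha, the alpha subunit of inhibin, had 1025, 1179.8 and 1381 CPM in KO testes and 307, 580.1 and 689.9 CPM in sorted cells (1.13 ± 0.08). Clu, clusterin, had 8924, 9751 and 10580.0 CPM in KO testes and 3236, 5815 and 7854 CPM in sorted cells (0.74 ± 0.09). No sorted library reached the lowest KO library for any of these 4 genes. The Leydig and myoid lists lay higher in the same libraries. Their part in these differences, and in those of Gdnf and Kitl, was not tested.

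Other Sertoli genes were lower or level. Aard had 606, 702 and 816 CPM in KO testes, against 1405, 1789.9 and 2268 CPM in sorted cells (-1.35 ± 0.06 log2, adjusted p = 4.5e-17), without overlap. Dmrt1, which keeps Sertoli cells male and also acts in germ cells, had 50.6, 64.4 and 84.8 CPM in KO testes and 142, 160.2 and 202 CPM in sorted cells (-1.32 ± 0.07), also without overlap. Rhox8, a homeobox gene, had 135, 183 and 303 CPM in KO testes and 233, 396 and 697 CPM in sorted cells (-1.19 ± 0.08), with overlap. Sox9, the factor that sets Sertoli cell fate, was slightly higher (0.41 ± 0.11, adjusted p = 0.0021), a call that did not hold on the core list scale or against 4 of the 5 stage groups taken alone (0.07 to 0.47 log2). Nr5a1, the steroidogenic factor, had 331, 411 and 456 CPM in KO testes and 275, 394 and 445 CPM in sorted cells. It was not called (0.07 ± 0.07, adjusted p = 0.33). Its sign turned on the core list scale (-0.160), while RLE scaling (0.141), DESeq2 and library totals called it higher. Nr5a1 is also a gene of Leydig cells. The Leydig list took 0.363 to 0.838% of the counts in KO testes and 0.0376 to 0.0687% in sorted cells. The part of Leydig cells in the level of Nr5a1 was not tested. Cldn11, the tight junction protein of the blood-testis barrier, had 704, 781 and 1225 CPM in KO testes and 639.9, 862 and 1248 CPM in sorted cells and was not called either (-0.12 ± 0.07, adjusted p = 0.11). It was called lower without KO day 49 replicate 1 (-0.150), without group A replicate 2 (-0.160) and without group C replicate 1 (-0.160), and its sign turned with library totals (0.260).

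**Figure D4:**
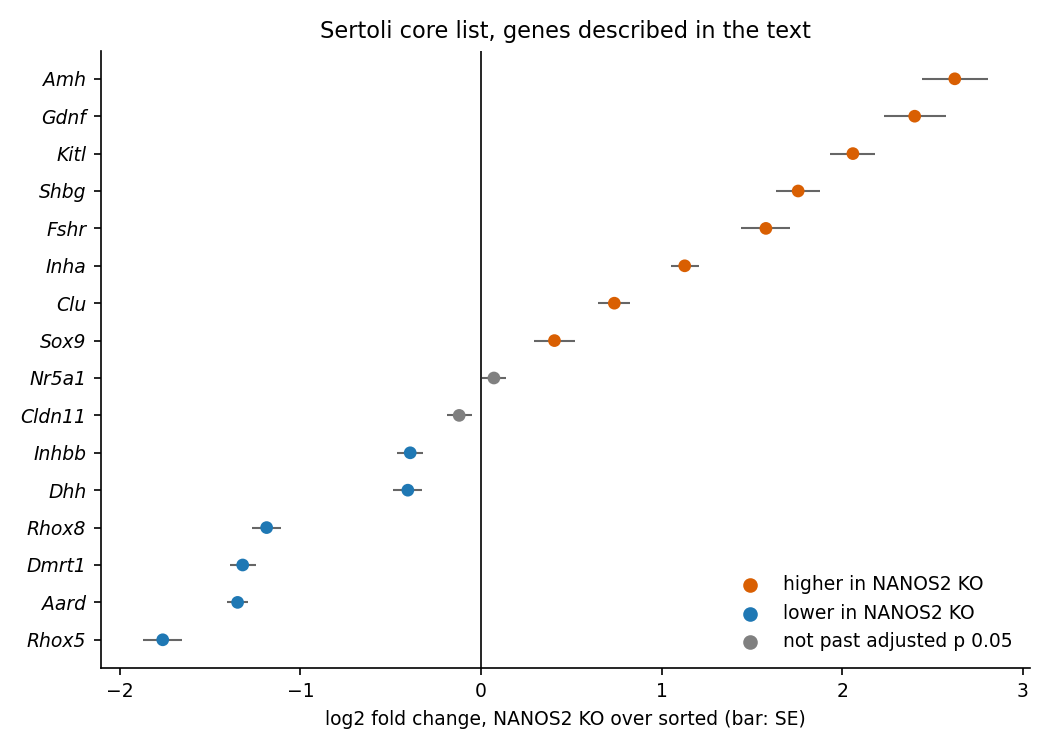
Log2 fold change, NANOS2 KO over sorted Sertoli cells, of 16 of the 28 genes of the Sertoli core list, those described in the text (x axis; bars are SE; 18 and 10 libraries). Amh (2.62), Gdnf and Kitl lie at the top and Rhox5 (-1.76) and Aard at the bottom; genes near 0 change sign with the scaling.

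Genes that vary with the stage of the cycle differed in which stage the KO testes lay near. Of the tested genes, 35.2% had a KO mean above all 5 stage means, 43.0% below all and 21.8% within them, and 3473 differed among the stage groups in the joint fit. All comparisons with single stage groups share the KO libraries. Rhox5, a homeobox gene switched on by androgen, had 46.3, 70.3 and 123 CPM in KO testes, against 124 and 187 CPM in stages I-III, 641 and 781 in IV-VI, 640 and 942 in VII-VIII, 162 and 183 in IX-X, and 83.9 and 52.7 in XI-XII. The KO testes lay at the low end of that cycle, with a log2 fold change of 0.13 against stages XI-XII (adjusted p = 0.61) and -3.41 against VII-VIII (adjusted p = 1.1e-15).

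Drd4, a dopamine receptor gene that also responds to androgen, was at the other end. It had 88.0, 139.7 and 189.6 CPM in KO testes, against 19.2 and 117 CPM in stages IV-VI, 108 and 128 in VII-VIII and 2.74 and 2.44 CPM in XI-XII. Its log2 fold change was 0.19 against VII-VIII (adjusted p = 0.63), 0.98 against IV-VI (adjusted p = 0.025) and 5.68 against XI-XII (adjusted p = 2.5e-08). Slc16a3, a lactate exporter, lay likewise, with 22.6, 47.9 and 90.1 CPM in KO testes, against 81.8 and 53.3 CPM in VII-VIII and 1.37 and 3.66 CPM in XI-XII. Both Rhox5 and Drd4 were highest in VII-VIII among the sorted cells, and the KO testes lay near the lowest stage for Rhox5 and near the highest for Drd4. Of the 6 genes of the androgen-responsive list 1 was higher and 4 lower, with a median of -0.893 log2 (-0.511 with library totals).

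Gas6 and Jag1 were lowest in stages VII-VIII among the sorted cells. Gas6, the bridge between dying cells and MERTK, had 329, 461 and 621 CPM in KO testes, against 155 and 186 CPM in VII-VIII, 646 and 444 CPM in IX-X and 1119 and 1363 CPM in I-III. It was higher than in VII-VIII (1.44 log2, adjusted p = 3.6e-08) and lower than in I-III (-1.42, adjusted p = 3.8e-10), and was not called against IX-X (-0.23, adjusted p = 0.15). Jag1, a Notch ligand, had 7.92, 14.8 and 19.4 CPM in KO testes, against 6.89 and 12.4 CPM in VII-VIII and 32.7 and 56.8 CPM in XI-XII, and was not called against VII-VIII (0.50, adjusted p = 0.11).

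**Figure D5:**
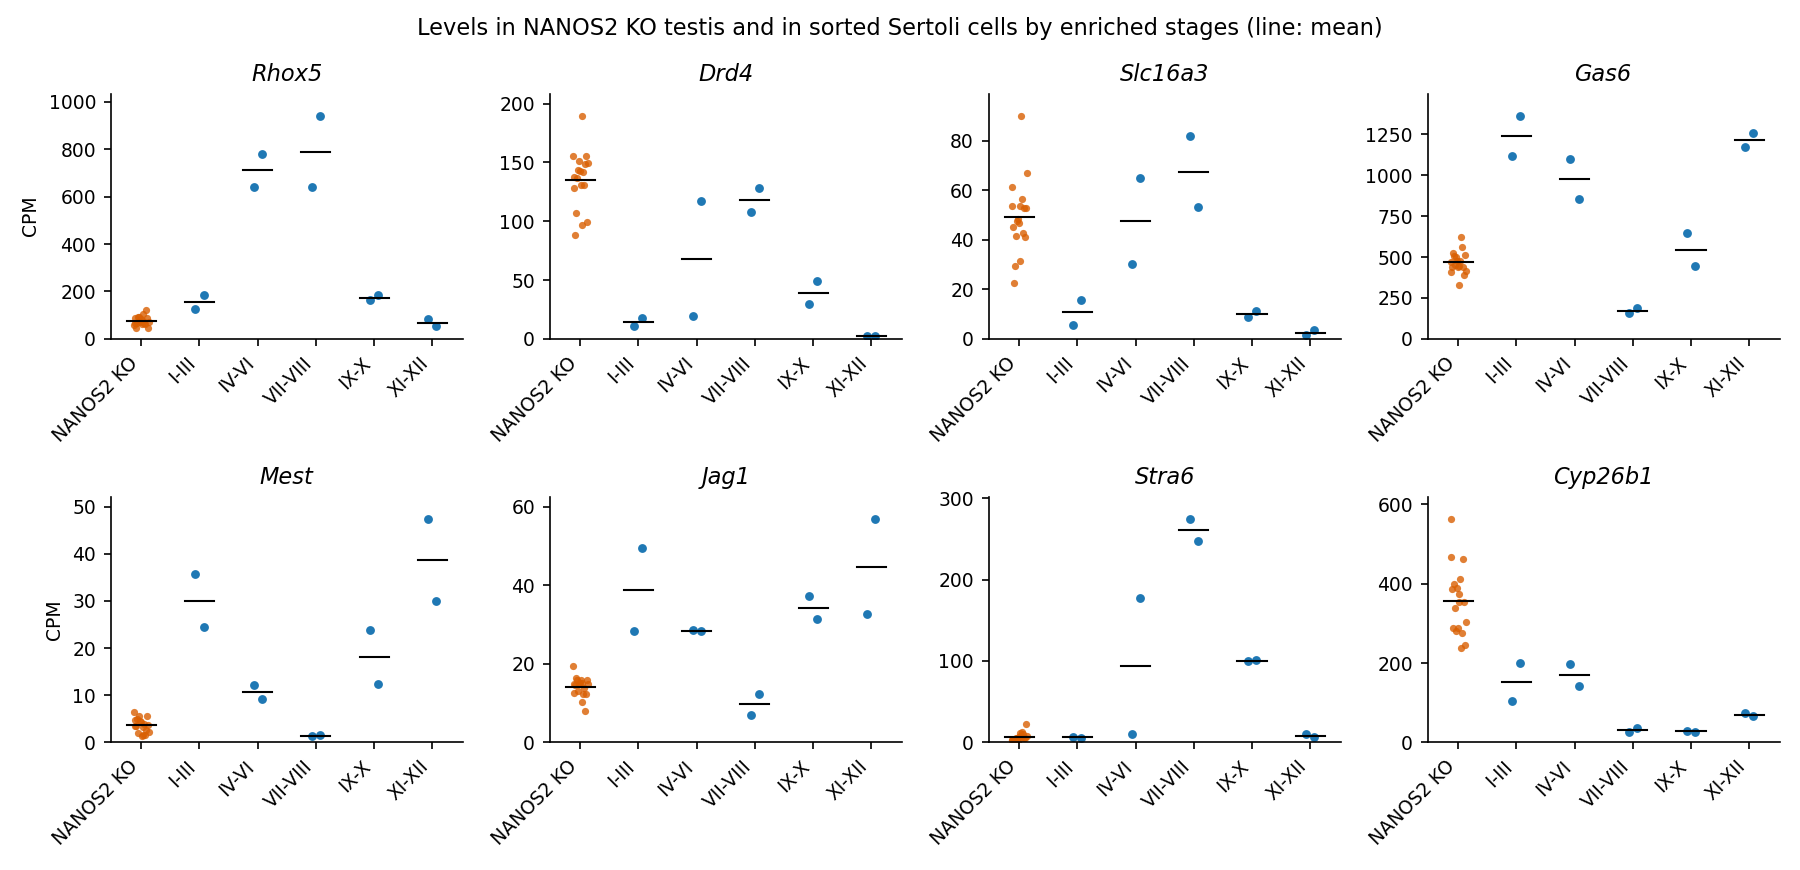
Level in CPM of 8 genes in each library of NANOS2 KO testes (n = 18) and of sorted Sertoli cells by enriched stages (n = 2 each, in cycle order); lines are means. Rhox5 and Stra6 in KO testes sit with the lowest stages. Drd4 and Slc16a3 overlap stages VII-VIII and IV-VI, for Drd4 in only 1 of the 2 libraries of IV-VI. Gas6 lies above VII-VIII and near IX-X, Mest and Jag1 lie near VII-VIII and below the other stages, and Cyp26b1 above every stage.

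Retinoid genes also split, with 7 of 18 tested genes higher and 7 lower and a median of 0.070 log2 that turned to -0.166 on the core list scale and was 0.452 with library totals (9 higher, 6 lower). Over all tested genes 38.1% were higher and 47.0% lower, so the split alone says little about the list. Stra6, the receptor that takes up retinol, had 0.503, 5.37 and 22.5 CPM in KO testes, against 274 and 247 CPM in VII-VIII, 99.4 and 102 in IX-X, and 6.28 and 5.81 in I-III. Aldh1a2, which makes retinoic acid and is high in germ cells, had 11.3, 20.4 and 57.6 CPM in KO testes and 25.8, 77.9 and 215 CPM in sorted cells (-2.04 ± 0.16). Stra6 overlapped with stages I-III and XI-XII and with 1 library of IV-VI, and Aldh1a2 was below the mean of every stage. Of the other enzymes, Aldh1a1, Cyp26b1, Adh1 and Dhrs3 (1.88 log2) were higher and Rdh11 (-2.20) and Cyp26a1 (-4.90) lower. Aldh1a1, which also makes retinoic acid, had 1345, 1976 and 2416 CPM in KO testes, against 330.4, 514 and 888 CPM in sorted cells (1.91 ± 0.08). Cyp26b1, which degrades retinoic acid, had 238, 354 and 563 CPM in KO testes and 26.3, 69.5 and 201 CPM in sorted cells (2.33 ± 0.11). Adh1, an alcohol dehydrogenase that acts on retinol, had 42.8, 58.1 and 144 CPM in KO testes and 0, 0.558 and 2.04 CPM in sorted cells. The sets did not overlap for Aldh1a1, Cyp26b1 or Adh1.

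The growth factors of the stem cell niche were higher in 11 of 12 tested genes, with a median of 4.93 log2, and Jag1 was lower. Cxcl12, a chemokine that holds stem cells in place, had 107, 152 and 214 CPM in KO testes, against 0, 0.804 and 2.86 CPM in sorted cells (7.37 ± 0.18 log2). Csf1, the macrophage growth factor, had 80.3, 105 and 119.6 CPM in KO testes and 0, 0.801 and 1.84 CPM in sorted cells (7.05 ± 0.18). Both were at or near 0 in every sorted library, and the myoid, stroma and endothelial lists lay higher in the same KO libraries; their part was not tested. Basement membrane genes, laid down by Sertoli and myoid cells, were higher in 15 of 18 (median 2.20). Lama2, a laminin chain, had 145, 232 and 334 CPM in KO testes and 3.14, 6.40 and 9.81 CPM in sorted cells, while Fn1, fibronectin, was lower (-1.18 ± 0.16).

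Of 19 junction genes 10 were higher and 5 lower, with a median of 0.394 log2. With library totals 14 were higher and 4 lower (median 0.767), and on the core list scale 9 and 7 (median 0.160). Jam2, a junctional adhesion molecule, had 149, 222 and 256 CPM in KO testes, against 22.2, 56.6 and 113 CPM in sorted cells (2.10 ± 0.11). Gja1, the gap junction protein connexin 43, had 295, 421 and 464 CPM in KO testes and 102, 165 and 235 CPM in sorted cells (1.34 ± 0.11). Pvrl3, the nectin that spermatids present to Sertoli cells, had 1.58, 3.83 and 6.77 CPM in KO testes and 55.2, 118 and 156 CPM in sorted cells (-4.77 ± 0.11), while its partner Pvrl2, on the Sertoli side, differed by less (-0.81 ± 0.08). Jam2, Gja1 and Pvrl3 did not overlap between the sets, and Pvrl2 did.

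Most genes of energy supply were lower. Of the 22 genes for glycolysis and lactate export, 18 were lower in KO testes and 4 higher, with a median of -0.998 log2 (13 lower and a median of -0.615 with library totals). All 7 germ cell isoforms of glycolytic enzymes were lower, with a median of -12.9 log2 (-12.5 with genes at 0 set to the bound). Pgk2 and Pgam2, a phosphoglycerate kinase and mutase of germ cells, had 0 counts in all KO libraries. In sorted cells Pgk2 had 285, 468 and 579.5 CPM and Pgam2 136, 309 and 523 CPM, so that they were at least 8149-fold and 5734-fold lower in KO testes. Their widely used counterparts differed far less. Pgk1 had 25.5, 34.6 and 43.6 CPM in KO testes, against 36.8, 49.7 and 73.6 CPM in sorted cells (-0.45 ± 0.09). Pgam1 had 94.0, 119 and 136 CPM in KO testes and 116, 167 and 215 CPM in sorted cells (-0.49 ± 0.08). Both overlapped between the sets, and neither was called with library totals (-0.07 and -0.11). Each pair is made of close copies, so a small share of reads may have been placed on the wrong one.

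Ldha, the lactate dehydrogenase of most tissues, was lower by more than these, with 85.9, 106 and 133 CPM in KO testes, against 499, 666 and 934 CPM in sorted cells (-2.70 ± 0.09 log2). Slc2a3, the glucose transporter GLUT3, had 26.2, 42.1 and 51.9 CPM in KO testes and 355, 695 and 1173 CPM in sorted cells (-4.16 ± 0.15). Hk1, a hexokinase that also has germ cell forms, had 43.6, 58.0 and 62.5 CPM in KO testes and 515, 1116 and 1895 CPM in sorted cells (-4.44 ± 0.12). No KO library reached the lowest sorted library for any of the 3. Aldoc, aldolase C, was the largest rise of the list (3.11 ± 0.16).

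Of the 13 mitochondrially encoded genes 12 were lower, with a median of -1.68 log2. mt-Co1, a subunit of cytochrome oxidase, had 3223, 10538 and 13009 CPM in KO testes, against 18782, 33279 and 50032 CPM in sorted cells (-1.72 ± 0.19, and -1.65 without KO day 49 replicate 1, the lowest KO library). The sets did not overlap. In sorted cells the 13 genes took 11.8 and 4.04% of the counts in the 2 libraries of group D, and 10.9 and 5.25% in those of group E. The nuclear genes of oxidative phosphorylation were lower in 11 of 13, with a smaller median of -0.695, but in 7, with 2 higher and a median of -0.313, with library totals. The germ cell lists, whose genes also took a larger share of the sorted libraries, moved with all these energy genes, and their part was not tested.

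Of 21 genes of cholesterol synthesis 16 were higher and 2 lower, with a median of 1.80 log2. Cyp51, the lanosterol demethylase, had 86.0, 122 and 175 CPM in KO testes, against 16.1, 27.6 and 43.6 CPM in sorted cells (2.26 ± 0.10). Fdft1, squalene synthase, went the other way (-1.24 ± 0.10). Neither gene overlapped between the sets. Lysosome and phagocytosis genes were higher in 11 of 19 and lower in 4 (median 0.429). With library totals 15 were higher and 0 lower (median 0.812), and on the core list scale 8 and 6 (median 0.197). Mertk, the receptor by which Sertoli cells and macrophages take up dying cells, had 147, 166 and 179.8 CPM in KO testes and 20.8, 35.1 and 45.7 CPM in sorted cells (2.26 ± 0.11). The Leydig and macrophage lists moved with these 2 lists as well, and their part was not tested.

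Genes of cell division were lower in 20 of 22, with a median of -2.36 log2. Top2a, the topoisomerase of dividing cells, had 2.58, 3.75 and 7.04 CPM in KO testes, against 47.1, 67.0 and 132 CPM in sorted cells (-4.07 ± 0.16). Ccnb2, cyclin B2, had 0.322, 0.720 and 2.01 CPM in KO testes and 23.6, 38.3 and 73.6 CPM in sorted cells (-5.54 ± 0.22). No KO library reached the sorted range for either, and the germ cell lists, which include dividing cells, were lower in the same libraries; their part was not tested. Only Mcm4, a helicase subunit, was called higher, by 0.37 ± 0.12, and it lost that call on the core list scale and against 4 of the 5 stage groups.

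Immediate early genes, which can respond within minutes to handling of cells, were lower in 12 of 18 and higher in 4 (median -0.450), but with library totals lower in 8 and higher in 5 (median -0.0697). Fosb had 0, 1.41 and 2.68 CPM in KO testes, against 33.9, 69.8 and 85.7 CPM in sorted cells (-5.96 ± 0.19). Fos had 1.49, 4.53 and 9.33 CPM in KO testes and 19.6, 51.1 and 63.0 CPM in sorted cells (-3.48 ± 0.17). Egr1 had 10.0, 19.6 and 35.3 CPM in KO testes and 22.9, 68.1 and 98.6 CPM in sorted cells (-1.69 ± 0.16). Fosb and Fos did not overlap between the sets, and Egr1 did. Myc was higher (5.07 ± 0.40), from 275 counts over the KO libraries, against 5 over the sorted ones. Dnajb1, a heat shock co-chaperone, had 40.8, 46.8 and 56.6 CPM in KO testes and 168, 264 and 416 CPM in sorted cells (-2.51 ± 0.09). The KO testes were snap-frozen whole and the sorted cells went through cell sorting before freezing, so handling and genotype cannot be told apart here. Interferon and antigen presentation genes were higher in 14 of 16 (median 1.26). The macrophage list moved with them, at 0.0927 to 0.147% of the counts in KO testes and 0.0199 to 0.0428% in sorted cells, and its part was not tested. Ifitm3, an interferon-induced membrane protein, had 9.51, 21.2 and 32.6 CPM in KO testes and 0, 0.617 and 1.49 CPM in sorted cells. The 2 libraries of day 49 had the highest summed shares of the interferon list among the KO libraries (0.244% in replicate 2, 0.137% in replicate 1). The shares of the 2 sets overlapped, at 0.0945 to 0.244% in KO testes and 0.0561 to 0.0974% in sorted cells. Tap2, a peptide transporter, had 44.4 and 45.7 CPM on day 49 and 11.1 to 22.6 CPM in the other KO libraries. Its log2 fold change was 2.603 without replicate 1 and 2.598 without replicate 2. The 2 were not left out together, so how far Tap2 depends on day 49 was not tested. Ifitm3 had 9.51 and 27.0 CPM on that day. Without replicate 2 it stood at 5.09 log2, against 5.20 ± 0.28 with it.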

How the data were processed

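Poly(A) RNA was sequenced on an Ion Proton, per the labels' protocols. The submitters' processing notes name Bowtie, TopHat, Cufflinks and mm10, with no version. The counting step, its use of strand and the annotation were not given in the sources used here. Raw counts were deposited by the authors per gene for each set, with 43280 rows of symbols, and tables named as FPKM whose deposited values equal the CPM of those counts to within 0.0005; these served to number 2 day 42 columns that share a header. The 27 rows whose symbols had turned into dates stayed in the totals and were not named. Both count tables were joined by symbol. edgeR 4.0.16 (R 4.3.3) fitted 14 groups (9 KO days, 5 stage groups) with filterByExpr, TMM scaling and robust quasi-likelihood, and tested the mean of the KO days minus the mean of the stage groups. The printed CPM are scaled by TMM, and shares use library totals. Each SE is the size of the fold change divided by the square root of the test's F statistic, an approximate standard error. Genes were called at an adjusted p under 0.05 over all 15777 tested, and every adjusted p in the text comes from that fit. Members and lists were chosen with earlier results of these data known.

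Named genes were Nanos2, the 4 markers, the 12 largest called rises and falls with no overlap and an average log2 CPM of 4 or more, up to 2 called members of each list per direction, and the 4 highest genes at 0 in one set. Other named genes (Amh, Fshr, Gdnf, Shbg, Clu, Sox9, Nr5a1, Cldn11, Rhox8, Stra6, Cyp26b1, Aldh1a2, Cyp17a1, Star, Insl3, Gja1, Cyp51, mt-Co1, Egr1, Prm1, Tdrd1, Hspa2, Slc2a3, Ldha, Pgk1, Pgam1, Pgam2, Inhbb, Dhh, Dhrs3, Rdh11 and Cyp26a1) were added after their values were seen. Some genes the rule names are not reported here. Counting intervals are exact at 95% and, like the floor of 3 counts, cover counting error only. Of the symbols, 91.1% matched GENCODE M21. Tested on simulated counts for the same contrast, the fit recovered 96.9% of 97 genes changed by log2 1. It also recovered all of 94 changed by log2 2, and called 0.0958% of 14622 unchanged genes. In the libraries themselves 85.1% of tested genes were called, and the sets differed in spread (biological coefficient of variation 0.268 sorted, 0.123 KO). Whether the rates from simulated counts hold for such libraries was not tested. Libraries of 1 group differed by more than sampling noise (chi-square per degree of freedom 1.82 to 33.8). All were kept as separate replicates, though such a difference does not tell technical from biological ones. Alternatives changed the scaling, filter, tool, design, stage group and libraries.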

Additional observations from a re-analysis of the deposited data

Results flagged for a closer look

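The effect of Gas6 differed between the stage groups it was set against. It had 329, 461 and 621 CPM in NANOS2 KO testes, against 155 and 186 CPM in sorted cells of group D and 1119 and 1363 CPM in group B. The log2 fold change was 1.440 against group D and -1.420 against group B, and the stage groups differed from each other in the joint edgeR fit (adjusted p = 2.8e-09). Mest, an imprinted gene, showed the same at a lower level, with 1.33, 3.61 and 6.34 CPM in KO testes, against 1.29 and 1.51 CPM in group D and 47.3 and 30.0 CPM in group A. Its log2 fold change was 1.308 against group D and -3.421 against group A, with an adjusted p of 1.0e-05 for the difference among stage groups. In group D the 2 libraries of Mest rest on few counts. All these comparisons share the KO libraries. Groups of 2 libraries allow no check for a single library far from its group.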

How the results depend on the processing

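The counts of genes higher and lower in NANOS2 KO testes stayed within 1.5 times the main values under every alternative run: RLE scaling, library totals, the summed Sertoli core list, its median ratio (added after the data were seen), TMM without mitochondrial and germ cell genes, 2 filters, DESeq2 1.42.0, limma 3.58.1, 2 plain groups, each stage group alone and each library left out. Leaving out 1 library left a group of 1, which also loosened the filter on low counts. Between 16469 and 16583 genes were tested in those runs, in place of 15777. Their counts of calls therefore do not show the effect of a single library alone. Calls were 44.7% higher in the main result, 56.4% with library totals (7556 higher, 5849 lower) and 37.7% on the core list scale (5024 and 8315). With at least 3 in place of 10 counts in the other set, genes at 0 in all KO libraries numbered 387 and genes at 0 in all sorted libraries 25.

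The replicate numbers showed no pairing common to all groups (same-numbered deviations correlated at -0.28 to 0.39, median -0.006, over 91 pairs of groups). Of the 91 correlations 10 lay over 0.1, and pairing among only some of the groups was not tested. A replicate block gave 6015 higher and 7404 lower.

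Directions that turned were those of Rhox5 (0.126) and Mfge8 (0.264) against group A, Mfge8 (0.024) and Tapbp (0.082) against B, Rora (0.050) against C, Jag1 (0.503), Slc16a3 (-0.485), Gas6 (1.440) and Mest (1.308) against D, Tapbp with library totals (0.179), Nr5a1 on the core list scale (-0.160) and against A (-0.040), and Cldn11 against A (0.144) and B (0.130) and with library totals (0.260). Beyond the scaling itself, the cause was not tested. Depth limits genes at 0, and the spread was larger among sorted than among KO libraries (biological coefficient of variation 0.268 and 0.123), while the joint fit used 1 value (0.192).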

Other observations

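Imprinted genes, which are expressed from 1 parental copy, were higher in 9 of 13 tested and lower in 4, with a median of 1.41 log2. Meg3, a maternally expressed long RNA, had 177, 226 and 461 CPM in NANOS2 KO testes, against 0, 0.546 and 0.995 CPM in sorted Sertoli cells (8.85 ± 0.21 log2, SE). Igf2, the fetal growth factor, had 39.4, 54.0 and 69.3 CPM in KO testes and 0.498, 3.30 and 7.75 CPM in sorted cells (3.98 ± 0.16). Cdkn1c, an inhibitor of the cell cycle, went the other way, with 1.15, 2.43 and 5.15 CPM in KO testes and 14.6, 23.1 and 33.0 CPM in sorted cells (-3.07 ± 0.19). None of the 3 overlapped between the sets. The Leydig and stroma lists were higher in the same libraries, and the 4 KO libraries with the most Meg3 (362 to 461 CPM) were those with the most Cyp17a1 (1477 to 1921 CPM); their part was not tested. The clock genes split, with 8 of 17 higher and 6 lower and a median of 0.174 that turned to -0.035 on the core list scale (6 higher, 7 lower), while library totals gave 11 and 3 (median 0.555). Of all tested genes 38.1% were higher and 47.0% lower. Per3 (2.61 ± 0.13) and Hlf (3.50 ± 0.20) were higher, and Cry1 (-0.99 ± 0.09) was lower.

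Position and gene type also went with direction. Of 623 tested genes on the X chromosome 51.7% were higher in KO testes and 33.2% lower, with a median of 0.352 log2. On the autosomes 32.0 to 43.5% were higher and 39.5 to 53.9% lower. Of the long intergenic RNAs tested 61.2% were lower, and of protein-coding genes 46.4%. The class annotated as processed transcripts went the other way, with 53.4% higher and 28.2% lower. The promoter windows held a median of 9 CpG among the genes called at least 10-fold higher that have a window (708 of 1090), 9 among those at least 10-fold lower (1411 of 2096) and 20 among all tested genes with one (11005 of 15777). These are descriptions with no test, and windows were found for 65.0%, 67.3% and 69.8% of the genes, too few to speak for the rest.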
